A study of Mus musculus with 9 samples.

Results

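The genes described here are 8 extracellular matrix proteins and matrix regulators, of 36528 gene numbers counted: the collagen VI chains Col6a1, Col6a2 and Col6a3, the secreted glycoprotein Sparc, the protease inhibitor Timp2, the protease Adamts1, and the proteoglycans Hspg2 and Vcan. They were selected on their function as matrix genes and on the genotype values in these same libraries, where Col6a3 had been seen to be low in the transgenic group. Their genotype differences are therefore given as a description, without a p-value for any of them. RNA was sequenced from Cd11b+ myeloid cells, a sort that takes microglia and other myeloid cells, isolated from brains of mice aged 11 to 12 months. The wild-type group, non-transgenic littermates, comprised 4 libraries, with females as libraries 1 and 2 and males as libraries 3 and 4. The Tau-P301L group comprised 5 libraries from mice transgenic for tau with the P301L mutation, with females as libraries 1 and 2 and males as libraries 3 to 5. The sources used here do not give the transgene's promoter or the strain, and no label says that each library came from its own mouse, so errors measure the spread between these libraries.

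The matrix is the meshwork of secreted proteins around cells. Collagen VI is assembled from chains encoded by Col6a1, Col6a2 and Col6a3 into a heterotrimer that goes on to form beaded filaments, and in some tissues Col6a4, Col6a5 or Col6a6 supply the chain that stands in for Col6a3. In brain, most fibrillar and basement membrane matrix is laid down around vessels and in the meninges, while the space between cells is filled by hyaluronan and proteoglycans such as versican, the product of Vcan. Microglia are known to secrete Sparc and to remodel matrix through proteases and their inhibitors.

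On GRCm38.p6 coordinates, Col6a3 lies at chr1:90766860-90844001. Col6a2 (chr10:76595756-76623630) and Col6a1 (chr10:76708792-76726044) are neighbours separated by 85161 bases. The windows upstream of the start of each chain are shown because the chains, whose products join in a single molecule, differed widely in level in these cells. Each is 220 bases of RefSeq sequence (GRCm38.p6), outside the gene, written 5′ to 3′ on the gene's strand. For Col6a2, which has a pair of RefSeq starts, the outer is shown. Capitals mark matches, on either strand, to TGACTCA (the AP-1 site), GGGCGG (the GC box), TATAAA (the TATA box) or GAGGAAG (a site of the kind bound by PU.1, a myeloid factor of the ETS family).
Col6a3, chr1:90844002-90844221, minus strand: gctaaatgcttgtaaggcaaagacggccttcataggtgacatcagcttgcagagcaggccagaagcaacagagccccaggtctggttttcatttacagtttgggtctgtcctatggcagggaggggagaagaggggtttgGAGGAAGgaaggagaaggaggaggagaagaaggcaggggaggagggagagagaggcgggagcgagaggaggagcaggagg
Col6a1, chr10:76726075-76726294, minus strand: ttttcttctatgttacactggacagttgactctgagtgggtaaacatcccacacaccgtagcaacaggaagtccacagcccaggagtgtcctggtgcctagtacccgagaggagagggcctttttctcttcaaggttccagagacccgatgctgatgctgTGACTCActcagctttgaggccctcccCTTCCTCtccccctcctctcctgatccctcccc
Col6a2, chr10:76623661-76623880, minus strand: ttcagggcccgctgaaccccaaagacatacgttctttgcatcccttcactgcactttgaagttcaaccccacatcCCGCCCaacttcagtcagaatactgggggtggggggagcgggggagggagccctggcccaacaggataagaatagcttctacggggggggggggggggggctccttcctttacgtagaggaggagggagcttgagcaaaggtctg
The Col6a3 window held 1 match, to GAGGAAG, letters found in 9.01% of the 32851 windows of the same length. The Col6a1 window held 1 match to the same letters and 1 to TGACTCA, which 4.01% of windows held. The Col6a2 window held 1 match to GGGCGG, as did 28.5% of all windows. None of the 3 held TATAAA, found in 9.95%. All windows stop short of the RefSeq start they were taken from, so TATAAA in the bases next to that start went unseen. Such matches describe the letters of these windows only.

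The libraries held 1494727 to 3793606 counted reads, so that 3 reads, taken here as the limit a count of 0 allows, stood for 0.824 to 2.08 CPM (counts scaled to a common library total, adjusted by TMM). Microglial markers were abundant in both groups, with a summed level of 11420 to 15564 CPM in wild-type and 9082 to 16199 CPM in Tau-P301L libraries over 12 markers. Of these markers, 10 had a lower and 2 a higher mean in Tau-P301L. Of 10 endothelial markers 9 were detected, with sums of 19.3 to 35.7 CPM in the wild type and 14.8 to 39.5 CPM in Tau-P301L, while Cldn5 had no read in any library. The 13 markers of mural cells and fibroblasts, of which Vtn had no read, summed to 9.13 to 13.3 and 6.22 to 33.2 CPM. Neutrophil markers summed to 284 CPM in Tau-P301L library 4 and to 0.315 to 80.4 CPM in the others. Tau-P301L library 5 was the shallowest and held the highest sums for mural cells and fibroblasts, astrocytes (724 CPM) and oligodendrocytes (1445 CPM). In a bulk sample, fewer cells of a type and less RNA per cell cannot be told apart. By GENCODE M21 (GRCm38), exons of the 8 genes share 0 bases with exons of any gene that overlaps them.

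Levels of different genes were compared per length, as the authors' size-factor-adjusted RPKM, which divides reads by the length of the gene model and by depth. Sparc, which binds collagen and calcium and loosens contact between cells and matrix, was the highest by far, at 88.6 ± 11.1 RPKM over the 4 wild-type libraries and 80.9 ± 27.2 RPKM over the 5 Tau-P301L libraries (SD). It ranked 61 of 36528 genes in mean level per length. Timp2, an inhibitor of matrix metalloproteases, followed at 12.8 ± 1.92 and 11.9 ± 2.85 RPKM. Col6a3 came next at 2.88 ± 0.411 and 1.42 ± 0.378 RPKM. In every library the order was Sparc, then Timp2, then Col6a3, with no overlap between neighbours.

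The other 5 genes were low. Adamts1, a secreted protease that cleaves versican, stood at 0.172 ± 0.103 RPKM in wild-type and 0.435 ± 0.267 RPKM in Tau-P301L libraries, and Vcan at 0.170 ± 0.0881 and 0.390 ± 0.0894 RPKM. The levels of this pair did not differ beyond their spread in either group. Col6a1, Col6a2 and Hspg2, which encodes perlecan of the basement membrane, had 15, 7 and 16 reads over all 9 libraries and no read in 3, 4 and 4 of them. These 3 genes did not pass the filter on low counts and were not tested, so 5 of the 8 genes entered the fit.

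**Figure D1:**
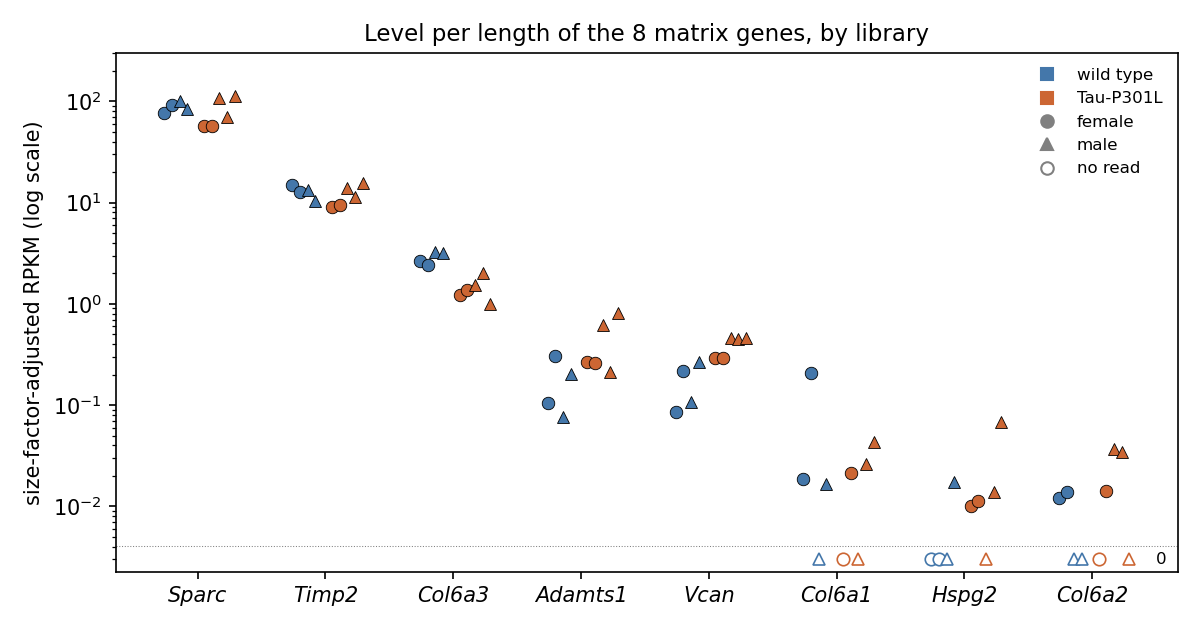
Level per length (size-factor-adjusted RPKM, log scale) of each of the 8 genes in each library, by genotype (colour) and sex (shape), with open symbols for libraries without a read. Sparc, Timp2 and Col6a3 occupy separate ranges, and Col6a1, Hspg2 and Col6a2 sit at the bottom with no read in 3 or 4 libraries.

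Of the collagen VI chains, Col6a3 was measured almost alone. Col6a3 had 388, 319, 377 and 523 reads in wild-type libraries 1 to 4 and 174, 175, 148, 208 and 62 in Tau-P301L libraries 1 to 5. Col6a1 had 1, 10, 0 and 1 reads in the wild-type and 0, 1, 0, 1 and 1 in the Tau-P301L libraries. Col6a2 had 1, 1, 0 and 0 and then 0, 1, 2, 2 and 0 reads. No library of either group held Col6a1 or Col6a2 at a level near that of Col6a3.

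Corrected for the length of the gene models, Col6a3 was 58.0 times as abundant as Col6a1 over all libraries (95% exact interval 35.1 to 103.9). Wild-type library 2 held 10 of the 15 Col6a1 reads, and without it the ratio was 151 (64.5 to 465). By group the ratio to Col6a1 was 49.1 (28.0 to 95.3) in the wild type and 93.8 (32.0 to 455.7) in Tau-P301L. Against Col6a2 it was 188 (91.1 to 468) over all libraries, 445 (123 to 3681) in the wild type and 85.0 (36.3 to 263) in Tau-P301L. These intervals cover counting error only, and for each chain those of the groups overlapped. The chains that can take the place of Col6a3 were near absent too: Col6a4 had 1 read each in wild-type library 4 and Tau-P301L library 1, Col6a5 1 read each in Tau-P301L libraries 1 and 2, and Col6a6 7 reads in wild-type library 2 and 1 in Tau-P301L library 2. Wild-type library 2, which held most reads of Col6a1 and Col6a6, had the lowest sum of mural and fibroblast markers among the wild-type libraries, 9.13 CPM. It also held 17 reads of Pdgfra, a marker of oligodendrocyte precursors and of fibroblasts, where the other libraries had 0 to 7. The part of other cells in these few reads was not tested.

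The study's labels set the transgenic animals beside their littermates. Col6a3 stood at 118, 108, 143 and 144 CPM in wild-type libraries 1 to 4. In Tau-P301L libraries 1 to 5 it stood at 54.8, 62.0, 65.8, 88.2 and 42.9 CPM. All 5 Tau-P301L libraries lay below all 4 wild-type libraries, as they did for 1.18% of all genes tested. The means were 128 ± 18.0 CPM (SD, n = 4) and 62.7 ± 16.7 CPM (SD, n = 5), with a log2 fold change of -1.04 (SE 0.26) for Tau-P301L over wild type.

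The lower level of Col6a3 was present in both sexes. Wild-type females averaged 113 ± 7.11 CPM and Tau-P301L females 58.4 ± 5.06 CPM (SD, n = 2 each). Wild-type males averaged 143 ± 0.417 CPM (SD, n = 2), against 65.6 ± 22.6 CPM for Tau-P301L males (SD, n = 3). Within each sex the groups did not overlap, which follows from the separation of all libraries given above and adds nothing to it. Tau-P301L library 3 had the highest share of mitochondrial reads of all libraries (23.1%) and library 5 the lowest depth. Without this pair the log2 fold change was -0.85 (SE 0.25).

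Vcan went the other way. It stood at 5.17, 13.2, 6.45 and 16.5 CPM in wild-type libraries 1 to 4, from 17, 39, 17 and 60 reads. In Tau-P301L libraries 1 to 5 it stood at 17.6, 18.1, 27.1, 26.7 and 27.0 CPM, from 56, 51, 61, 63 and 39 reads. The lowest Tau-P301L value exceeded the highest wild-type value, as for 1.31% of all genes tested, although the nearest pair, wild-type library 4 and Tau-P301L library 1, differed by little.

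The means of Vcan were 10.3 ± 5.41 CPM (SD, n = 4) and 23.3 ± 4.99 CPM (SD, n = 5). Their log2 fold change came to 1.10 (SE 0.43). Among Tau-P301L libraries the 3 males were above both females. The share of all genes that separate in that way was not computed, so nothing is read from it. Versican is a hyaluronan-binding proteoglycan made in brain by oligodendrocyte precursors and in blood by monocytes. The 7 other precursor markers summed to 4.93 to 14.2 CPM in wild-type and 4.96 to 23.5 CPM in Tau-P301L libraries, and 4 of 7 had a higher mean in Tau-P301L. The 9 other monocyte markers summed to 33.8 to 78.8 and 65.9 to 97.6 CPM, with 8 of 9 higher in mean. Ly6c2, 1 of these 9 and named after its values were seen, had 1 uniquely aligned read in Tau-P301L library 2 and 0 in the others. Nothing is read from that single marker. The part of these cells in the Vcan values was not tested.

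Adamts1 stood at 2.13, 6.09, 1.52 and 4.12 CPM in wild-type libraries 1 to 4, from 7, 18, 4 and 15 reads. In Tau-P301L libraries 1 to 5 it stood at 5.35, 5.31, 12.0, 4.24 and 15.9 CPM, from 17, 15, 27, 10 and 23 reads. The groups overlapped: Tau-P301L libraries 3 and 5 were well above all others and the other 3 lay among the wild-type values. The log2 fold change was 1.18 (SE 0.68), and without Tau-P301L libraries 3 and 5 it was 0.45 (SE 0.73). Hspg2 likewise had its highest count, 6 reads, in Tau-P301L library 5, beside 0, 0, 0 and 4 reads in the wild-type and 2, 2, 0 and 2 in the other Tau-P301L libraries. Library 5 was also the highest of all in markers of mural cells and fibroblasts (33.2 CPM), while Tau-P301L library 3 was the lowest (6.22 CPM). The part of these cells in the Adamts1 and Hspg2 values was not tested.

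**Figure D2:**
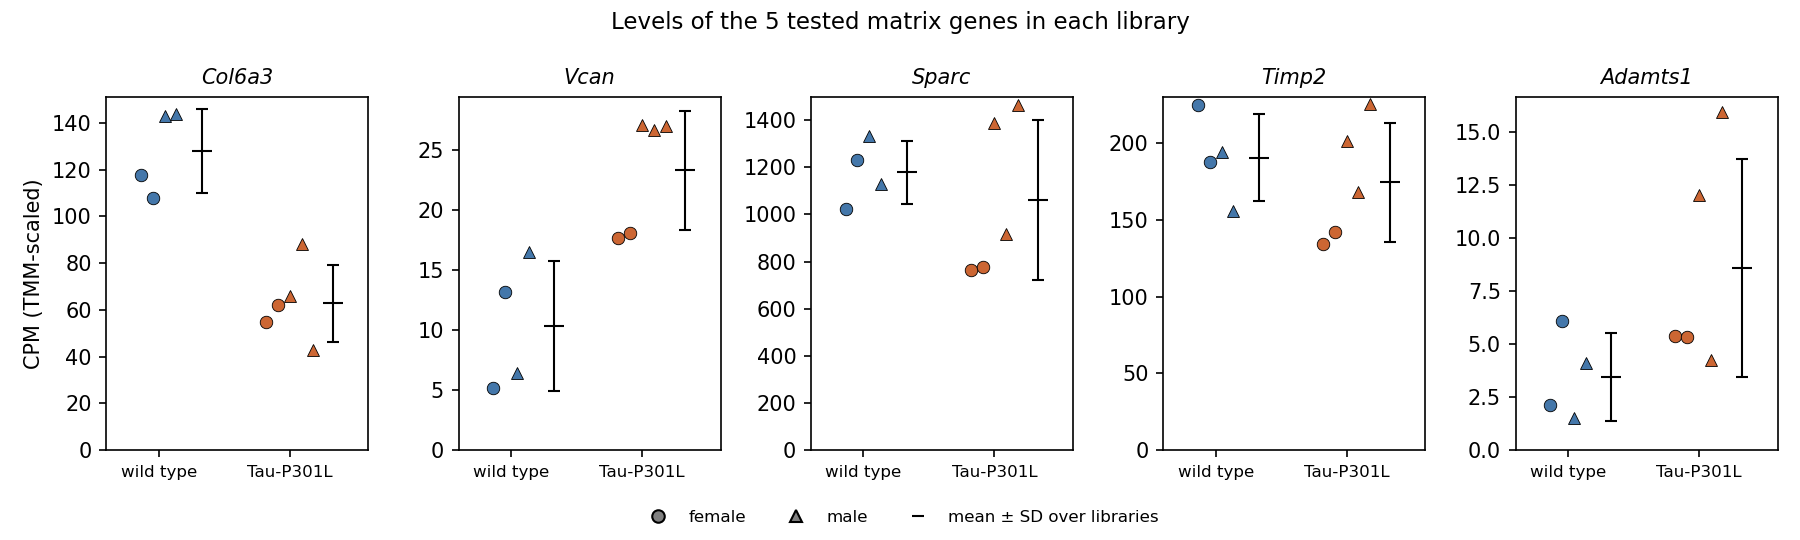
CPM after TMM scaling of the 5 tested genes in each library, by genotype and sex (circles females, triangles males), with mean ± SD per group. Col6a3 lies at 42.9 to 88.2 CPM in Tau-P301L against 108 to 144 CPM in wild type, Vcan lies higher in every Tau-P301L library, while Sparc, Timp2 and Adamts1 overlap.

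The most abundant of the genes, Sparc and Timp2, overlapped between genotypes. Sparc stood at 1023, 1231, 1333 and 1131 CPM in wild-type and at 763, 776, 1388, 919 and 1464 CPM in Tau-P301L libraries. Its means were 1179 ± 133 CPM (SD, n = 4) and 1062 ± 339 CPM (SD, n = 5), with a log2 fold change of -0.24 (SE 0.22). The Tau-P301L libraries were thus both the lowest and the highest of the series, with the low values in both females and in male library 4.

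Timp2 showed a similar layout, at 225, 187, 194 and 155 CPM in wild-type and 134, 142, 201, 168 and 226 CPM in Tau-P301L libraries (log2 fold change -0.17, SE 0.24). For both genes the females were separated, with means of 1127 ± 147 against 769 ± 8.87 CPM for Sparc and 206 ± 26.4 against 138 ± 5.76 CPM for Timp2 (SD, n = 2 each). Males overlapped for both. How many of all genes separate between 2 and 2 female libraries was not computed, so nothing is read from that split. The difference between the sexes in the genotype effect was 0.58 (SE 0.44) for Sparc and 0.76 (SE 0.46) for Timp2 on the log2 scale, and neither passed (edgeR interaction term, adjusted p = 0.9992 each). The share of mitochondrial reads was 20.0 and 10.3% in wild-type females, 16.5 and 9.30% in wild-type males, 10.2 and 10.3% in Tau-P301L females and 23.1, 18.6 and 15.4% in Tau-P301L males. With that share as a further term the genotype estimates were -0.26 (SE 0.21) for Sparc and -0.19 (SE 0.23) for Timp2.

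Set against the summed microglial markers of the same library, Sparc and Timp2 overlapped between the genotypes. Sparc stood at 90.5 ± 17.4 CPM per 1000 CPM of markers in the wild type, against 88.1 ± 12.2 in Tau-P301L. Timp2 stood at 14.4 ± 1.19 and 14.8 ± 2.14 on the same scale. Col6a3 stood at 9.81 ± 2.08 and 5.61 ± 2.33, with 4 of 5 Tau-P301L libraries below every wild-type library and library 4, at 8.96, among them. Vcan stood at 0.837 ± 0.535 and 1.99 ± 0.431, with 5 of 5 Tau-P301L libraries above every wild-type library. The marker sums themselves averaged 13289 ± 2051 CPM in the wild type and 11962 ± 3017 CPM in Tau-P301L (SD). Col6a3 and Vcan were chosen with their genotype values known, so this scale describes the same differences again. The share of all genes that separate on it was not computed.

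Ratios of reads within a library do not depend on how libraries are scaled. Per 100 reads of Sparc, wild-type libraries 1 to 4 had 11.5, 8.76, 10.7 and 12.7 reads of Col6a3. The Tau-P301L libraries 1 to 5 had 7.18, 7.99, 4.74, 9.60 and 2.93. Tau-P301L library 4 alone lay above a wild-type library, library 2.

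Per 100 reads of Timp2 there were 52.5, 57.6, 73.8 and 92.4 reads of Col6a3 in the wild type against 40.8, 43.5, 32.7, 52.5 and 19.0 in Tau-P301L libraries, where library 4 and wild-type library 1 met at 52.5. The ratio of Vcan to Col6a3 separated the groups most widely of those computed, at 4.38, 12.2, 4.51 and 11.5 Vcan reads per 100 Col6a3 reads in the wild type against 32.2, 29.1, 41.2, 30.3 and 62.9 in Tau-P301L libraries. It sets a gene that was higher against one that was lower, both chosen with these values known, so it describes the same differences again.

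**Figure D3:**
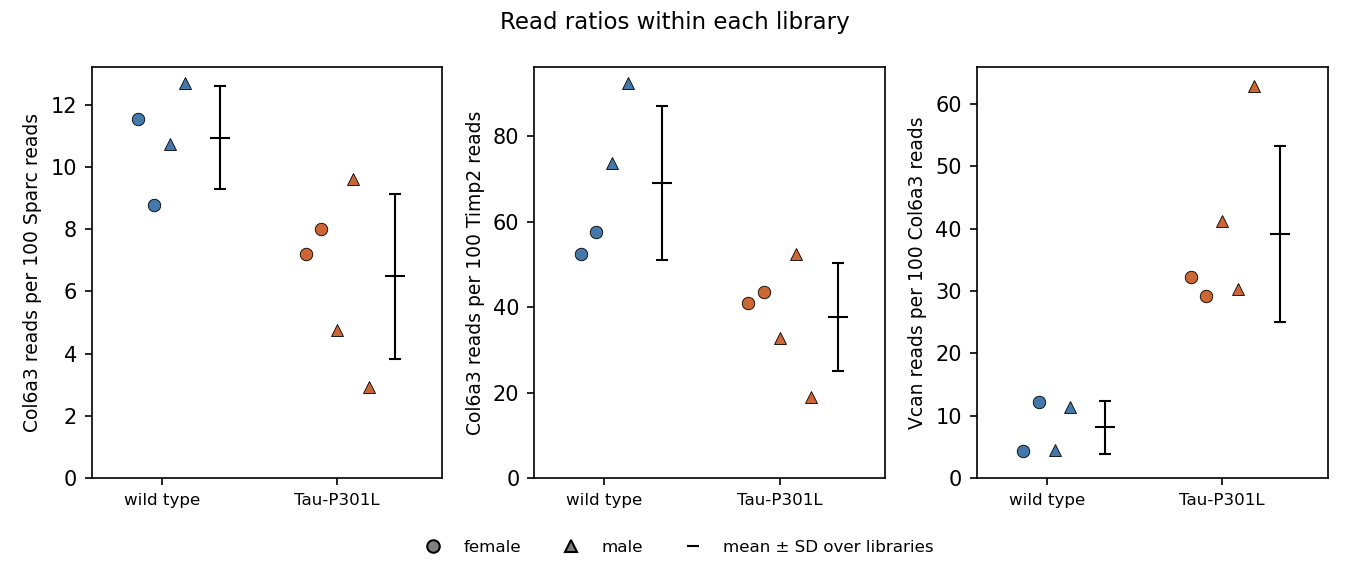
Reads of Col6a3 per 100 reads of Sparc and of Timp2, and reads of Vcan per 100 reads of Col6a3, in each library by genotype and sex, with mean ± SD. Col6a3 ratios are lower in Tau-P301L with Tau-P301L library 4 reaching into the wild-type range, and Vcan per Col6a3 is 29.1 to 62.9 in Tau-P301L against 4.38 to 12.2 in wild type.

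At an adjusted p of 0.05 over all 12250 genes tested, 0 of the 5 genes passed for genotype in edgeR, where 0.00816% of all genes did (1 gene, higher). At an unadjusted p under 0.05 there were 2 of the 5, against 6.35% of all genes. DESeq2 called 1 of them, Col6a3, as lower, where it called 0.0571% of all genes in that direction, and limma-voom called 0 of the 5 and 0.00816% of all genes. Since the genes were proposed with these results in view, nothing is read from those counts.

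Sex was not used in choosing the genes. None of the 5 passed for males against females (edgeR, 0 of 5, against 0.049% of all genes). At an unadjusted p under 0.05 there were 0 of the 5, against 2.43% of all genes. DESeq2 and limma-voom also called 0 of the 5, where they called 0.0571% and 0.049% of all genes. Sparc had the smallest p, with 948 ± 223 CPM in females (SD, n = 4) and 1247 ± 221 CPM in males (SD, n = 5), and overlapped between the sexes. Its log2 fold change for males over females was 0.44 (SE 0.23, edgeR adjusted p = 0.9998). Estimates for Vcan, Adamts1, Col6a3 and Timp2 were 0.48 (SE 0.42), 0.32 (SE 0.68), 0.25 (SE 0.26) and 0.17 (SE 0.24). The interaction of genotype and sex gave 0 calls among the 5 and 0% over all genes in edgeR, with 0 of the 5 at an unadjusted p under 0.05, against 3.8% of all genes. DESeq2 and limma-voom called 0 of the 5 for it, and 0.0327% and 0% of all genes.

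Tchp, Sugp2, Arl6ip4, Cmya5 and Zmynd8 had profiles over the 9 libraries among the closest to that of Col6a3, of 7727 genes with a mean of at least 10 CPM. Likeness was the root-mean-square difference between log2 CPM profiles centred on their means, and ran from 0.25 for Tchp to 0.28 for Zmynd8, against a median of 0.76 over all those genes. Cmya5 stood at 201 ± 24.5 CPM in the wild type, against 122 ± 21.7 CPM in Tau-P301L (SD over 4 and 5 libraries). None of these 5 is a matrix gene of the lists used here, but only 79 other matrix genes were among the 12250 tested. Nothing is read from that absence. The likeness also includes the genotype difference known when Col6a3 was chosen. Timp2 (0.62), Sparc (0.63) and Vcan (1.27) were far less alike to Col6a3, with 26.1%, 28.0% and 95.8% of genes nearer.

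Around these genes stood 224 others of the matrix, in lists of collagen chains, collagen-processing enzymes, matrix receptors, basement membrane genes, hyaluronan and lectican genes, metalloproteases and their inhibitors, Adamts proteases, matricellular proteins and proteoglycans. Of these, 79 passed the low-count filter and 12 had no read in any library. Estimates for genotype were higher in Tau-P301L for 40 and lower for 39, with a median log2 fold change of 0.09, against -0.00 over all genes tested. In edgeR 0 of the 79 passed (0.00816% of all genes did), while 7, or 8.86%, had an unadjusted p under 0.05, against 6.35% of all genes. DESeq2 called 2, Spp1 as higher and Cemip2 as lower, where it called 0.22% of all genes, and limma-voom called 0. The groups did not overlap for 3 genes that were higher (Col14a1, Sdc4 and Spp1) and 2 that were lower (Plod1 and Cemip2) in Tau-P301L. These make 3.8% and 2.53% of the 79, against 1.31% and 1.18% of all genes tested. The lists were chosen with earlier results of these data known, so nothing is read from these shares or from that of unadjusted p.

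**Figure D4:**
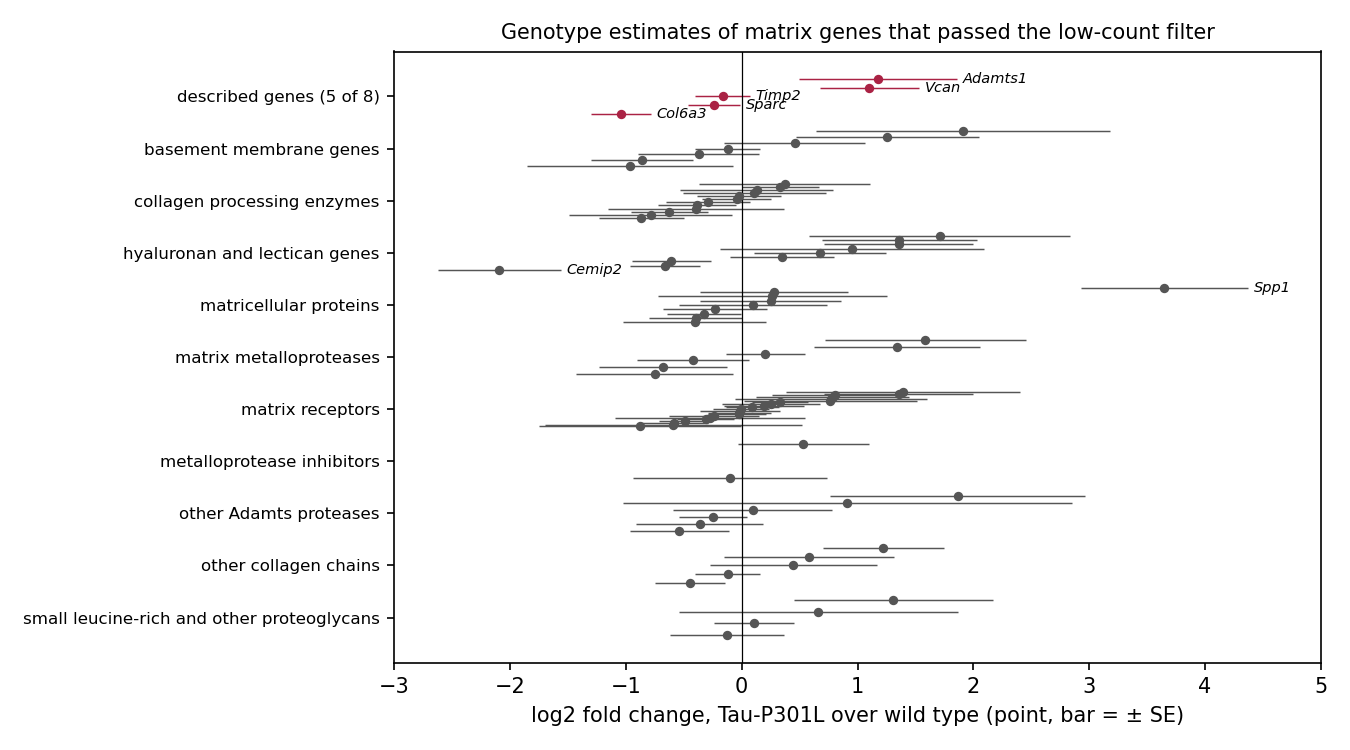
Log2 fold change (Tau-P301L over wild type) with its SE for the 5 tested genes described here and the 79 other matrix genes that passed the low-count filter, by list; a gene in more than 1 list is drawn in each. Most lists straddle 0, and Spp1 (3.65) and Cemip2 (-2.09) lie farthest out.

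By level per length the other matrix genes were led by Lair1, an inhibitory receptor for collagen on leukocytes, at 77.9 ± 10.5 RPKM in the wild type and 99.3 ± 29.5 RPKM in Tau-P301L (SD over 4 and 5 libraries). Col27a1, a fibrillar collagen chain, was at 23.4 ± 10.5 and 17.2 ± 6.65 RPKM, well above Col6a3. Then came the integrin chain Itgb5, the thrombospondin receptor Cd47, the laminin-binding integrin chain Itga6 and the scavenger receptor Stab1, at 16.9 ± 2.27, 9.23 ± 1.33, 8.26 ± 2.96 and 6.37 ± 1.20 RPKM in wild-type libraries. Of the 41 other collagen chains, 37 had fewer than 100 reads over all 9 libraries together.

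The hyaluronan and lectican genes besides Vcan gave 6 higher and 3 lower estimates over 9 genes, with 0 called in edgeR. Cemip2, a cell-surface protein linked to breakdown of hyaluronan, stood at 14.3, 12.8, 15.2 and 14.6 CPM in wild-type and 4.09, 2.83, 5.34, 2.54 and 1.38 CPM in Tau-P301L libraries. The fitted log2 fold change, -2.09 (SE 0.53, edgeR adjusted p = 0.450), came from 38 to 53 reads in each wild-type and 2 to 13 in each Tau-P301L library. Cd44, the main hyaluronan receptor, overlapped between groups at 4.41 ± 2.30 and 11.2 ± 9.18 CPM (1.36, SE 0.64, edgeR adjusted p = 0.776), with Tau-P301L library 4 highest at 26.7 CPM. That library was also the highest in neutrophil markers, whose part in its Cd44 value was not tested. Stab1, a scavenger receptor also placed in this list, stood at 213 ± 37.8 and 135 ± 66.9 CPM (-0.66, SE 0.30, edgeR adjusted p = 0.776).

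Among enzymes that modify collagen, Plod1 and Plod3, lysyl hydroxylases, and Colgalt1, a collagen galactosyltransferase, had the smallest p. Plod1 stood at 38.0, 37.2, 48.9 and 41.2 CPM in wild-type and 23.6, 34.7, 9.34, 29.3 and 16.6 CPM in Tau-P301L libraries (log2 fold change -0.87, SE 0.37, edgeR adjusted p = 0.772). Plod3 was at -0.62 (SE 0.33) and Colgalt1 at -0.38 (SE 0.34). Of the 12 tested enzymes of this list, 8 had lower and 4 had higher estimates, with 0 called.

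Of 5 other collagen chains tested, Col14a1, a chain that sits on fibril surfaces, was higher in every Tau-P301L library (5.32 ± 1.86 against 12.0 ± 3.93 CPM; 1.22, SE 0.52, edgeR adjusted p = 0.772). Col27a1 was at -0.45 (SE 0.30) and Col25a1 at 0.58 (SE 0.73). Matrix receptors gave 10 higher and 11 lower estimates over 21 genes, led by p by the integrin chains Itga9 (-0.49, SE 0.23) and Itgb3 (-0.59, SE 0.30) and by Cd44. Sdc4, a syndecan, whose groups did not overlap, was at 0.81 (SE 0.54).

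Basement membrane genes were led by Nid2 (-0.86, SE 0.44), Lama2 (1.26, SE 0.79) and Nid1 (1.91, SE 1.27), with 3 higher and 4 lower estimates over 7 genes. Metalloproteases gave 3 of each, led by Mmp16 (1.34, SE 0.72), Mmp12 (1.58, SE 0.87) and Mmp2 (-0.68, SE 0.55). Of the inhibitors besides Timp2, Timp3 was at 0.53 (SE 0.56) and Reck at -0.10 (SE 0.84). The other Adamts proteases gave 3 higher and 3 lower, led by Adamts20 (1.86, SE 1.10), Adamts6 (-0.54, SE 0.43) and Adamts16 (-0.25, SE 0.29). None of these passed in edgeR.

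Matricellular proteins gave 5 higher and 4 lower estimates, with Spp1, osteopontin, at 74, 47, 35, 9 and 5 reads in Tau-P301L libraries and 4, 2, 1 and 5 in wild-type libraries (3.65, SE 0.72, edgeR adjusted p = 0.199). Counts this low in wild type leave its size loose. Sparcl1, the closest relative of Sparc, was at -0.32 (SE 0.32) and Tgfbi at -0.40 (SE 0.40). The remaining proteoglycans were led by Gpc5 (1.31, SE 0.86), Bgn (0.66, SE 1.21) and Gpc2 (0.10, SE 0.34).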

How the data were processed

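RNA-seq of 9 libraries of sorted Cd11b+ brain cells was used. Per the submitters' processing notes, reads were aligned with GSNAP to GRCm38; the sources used here give no version, annotation or filter. Per the file headers, the deposited counts are numbers of uniquely aligned reads by gene model. The RPKM values, per the file headers, were adjusted by a size factor for each library, and they were used for levels per length. Of 36528 gene numbers 31049 matched a symbol in RefSeq's GRCm38.p6 table, and all 8 genes did.

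Genotype and labelled sex were fitted together on the counts with edgeR 4.0.16 (R 4.3.3), with the quasi-likelihood test, TMM scaling, the default low-count filter (12250 genes kept), robust dispersion and Benjamini-Hochberg adjustment over all genes; the interaction came from a fit with their product. SEs derive from the F statistic. CPM use total reads times the TMM factor. The biological coefficient of variation was 0.464. Depth was 1494727 to 3793606 reads a library, so genes with few reads have wide errors. Counting is not stated to use strand. The fit was tested on simulated data. DESeq2 1.42.0, limma-voom (limma 3.58.1), other scalings, filters and sets of libraries were tried.

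The members, lists and alternatives were chosen with earlier results of these data known. Named are the 8 genes, the 3 of smallest genotype p in each list, the 6 matrix genes of highest level per length and the 6 nearest to Col6a3 (log2 of CPM plus 0.5), of which 1 is not reported here. Sdc4, Pdgfra, Ly6c2, Col6a4, Col6a5 and Col6a6 were named after their values were seen. Some genes stand in more than 1 matrix list.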

Additional observations from a re-analysis of the deposited data

Results flagged for a closer look

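Within each genotype, a library was singled out for one of the 8 genes where its gap to the nearest other library, as a share of the group's range, exceeded Dixon's critical value at the 95% level. For normally distributed values, chance gives about 1 in 20 such groups. That rate does not hold for counts near 0, where a lone count among libraries without a read is always flagged. Col6a1 in wild-type library 2, at 3.38 CPM from 10 reads, stood apart from the other wild-type libraries. Hspg2 stood apart at 1.10 CPM in wild-type library 4, from 4 reads where the others had 0, and at 4.15 CPM in Tau-P301L library 5, from 6 reads. All 3 rest on 10 reads or fewer.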

How the results depend on the processing

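Col6a3 was lower in Tau-P301L under all 20 alternatives tried, with log2 fold changes from -1.16 to -0.85, and Vcan was higher under all 20, from 0.84 to 1.41. Many of these alternatives refit subsets of the same libraries, whose groups did not overlap for either gene, so their direction was largely set beforehand. Adamts1 was higher under 19, from 0.38 to 1.88, and had too few reads for the stricter filter. In males alone the genotype estimates turned for Sparc (0.031) and Timp2 (0.19). For males against females, leaving out Tau-P301L libraries 3 and 5 together turned Timp2 (-0.029) and Adamts1 (-0.44). The causes of these turns were not tested.

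Genes called for genotype numbered 1, and 27 with DESeq2, 26 with no low-count filter, and 0 with the mitochondrial share added, without Tau-P301L libraries 3 and 5, in females alone or in males alone. Leaving out 1 library at a time gave 0 to 1; it gave 0 without any wild-type library or without Tau-P301L library 1, 3 or 5. Of the 5 genes tested, DESeq2 called 1. Of the other matrix genes, DESeq2 called 2 and the fit with no filter 1, Spp1. Genes called for sex numbered 6, and 16 with no filter and 10 without libraries 3 and 5, where 1 matrix gene, Mmp8, was called in each. Mmp8 is also a neutrophil marker and stood at 20.8 CPM in Tau-P301L library 4, the library highest in those markers, and at 0 to 4.55 CPM in the others. Genes called for the interaction numbered 0, and 4 with DESeq2, 22 with no filter, 1 without libraries 3 and 5, and 0 to 4 leaving out 1 library at a time: 3 without wild-type library 4, 1 without Tau-P301L library 2 and 4 without Tau-P301L library 4. The cause of these changes was not tested.

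No paired analysis was possible because the library numbers were given here in accession order and the labels hold none that pair libraries across groups. Leaving out wild-type library 2, an alternative chosen after seeing the data, moved the ratio of Col6a3 to Col6a1 from 58.0 to 151 and that to Col6a2 from 188 to 189.8. At 1494727 to 3793606 reads a library, Col6a1, Col6a2 and Hspg2 were too low to compare between genotypes.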
